A study of Mus musculus with 9 samples.

Results

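The genes described are 10 regulators of muscle wasting: the ubiquitin ligase genes Fbxo32 (atrogin-1), Trim63 (MuRF1), Fbxo30 and Fbxo31, the FoxO transcription factor genes Foxo1, Foxo3 and Foxo4, and the regulators Klf15, Cdkn1a and Eif4ebp1. They were taken by name from the platform annotation, which gave them 25 of the 34945 probe sets that name 1 gene. Of these, 22 passed a filter on low values (log2 above 5 in at least 3 arrays), and all 10 genes were among the 9697 genes tested. Expression was measured on arrays in quadriceps femoris, a thigh muscle, of 9 female mice of the C57Bl/6 HT transgenic strain, in which a self MHC class I protein is expressed in skeletal muscle once the antibiotic doxycycline is withdrawn. Late mice (n = 3) came off doxycycline at 35 days of age and were killed at 50 days per their labels. Early mice (n = 3) came off it at 21 days and were killed at 35 days, after 2 weeks of expression. Control mice (n = 3) had doxycycline without a break until they were killed, at 35 days. All groups carry 1 strain label, but per the protocol the controls were littermates with a single transgene, and the promoter that drives the transgene is not given in the sources used here. Late mice were older than both other groups, so age and late induction cannot be told apart. Controls differed from both induced groups in staying on doxycycline and, per the protocol, in carrying a single transgene. Effects of the drug, of the transgenes and of MHC class I expression thus cannot be told apart against controls.

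Skeletal muscle breaks down its proteins largely by tagging them with ubiquitin and passing them to the proteasome. Insulin and IGF1 act through the kinase AKT to keep FoxO factors out of the nucleus; when that signal drops, or when glucocorticoids rise, FoxO factors and the glucocorticoid-induced factor KLF15 switch on the ligases atrogin-1 and MuRF1, which rise in fasting, disuse, denervation and inflammation. FoxO factors are controlled mainly through phosphorylation and location, so their own transcript is not the whole of their regulation.

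The upstream sequences of these genes carried the motifs of this pathway in few places. A RefSeq window of GRCm38.p6 from 250 bases before to 50 bases after the transcription start was given for 7 of the 10 genes, in 8 windows, and was searched on both strands for the FoxO motif GTAAACA, the palindrome of the glucocorticoid receptor (GAACA and TGTTC, 3 bases apart) and the paired core of the p53 element (CATG and CATG, 6 bases apart). The window of Trim63 (chr4:134314870-134315169, plus strand) held a FoxO match in reverse complement at -194 to -188 and a glucocorticoid receptor match at -208 to -196, and these did not overlap each other. They are printed in capitals below because the pair lies 1 base apart in the promoter of a ligase that both factors are known to act on.
Trim63: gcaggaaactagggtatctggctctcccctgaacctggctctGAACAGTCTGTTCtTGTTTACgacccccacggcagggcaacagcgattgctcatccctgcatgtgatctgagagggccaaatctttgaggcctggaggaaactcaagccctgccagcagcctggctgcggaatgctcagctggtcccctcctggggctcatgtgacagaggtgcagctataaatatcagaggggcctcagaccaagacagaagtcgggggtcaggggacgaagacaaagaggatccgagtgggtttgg
Of 32851 windows of this length in the table, 3.65% held the FoxO motif and 0.0578% the glucocorticoid receptor palindrome. Cdkn1a, a gene that p53 is known to induce, has windows at 2 annotated starts, and the upstream one (chr17:29090729-29091028, plus strand) held the p53 core pair at -48 to -35, in capitals.
Cdkn1a: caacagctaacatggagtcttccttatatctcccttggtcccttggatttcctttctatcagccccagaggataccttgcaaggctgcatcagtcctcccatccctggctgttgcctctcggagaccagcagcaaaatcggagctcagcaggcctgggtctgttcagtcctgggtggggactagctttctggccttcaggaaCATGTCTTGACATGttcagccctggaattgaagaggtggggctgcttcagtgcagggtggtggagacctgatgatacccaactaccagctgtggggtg
The p53 pair was in 0.712% of all windows. The windows of Fbxo30, Fbxo31, Foxo1, Foxo3, Klf15 and the downstream start of Cdkn1a held none of these letters, which says nothing about binding elsewhere.

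Values are log2 expression as deposited, given for replicates 1, 2 and 3 in that order, and differences are on the log2 scale ± SE. Before the members, the arrays themselves must be described, because those of 1 group were not alike. H2-K1, a classical class I gene, stood at 14.20, 13.11 and 14.31 in late, 14.67, 14.63 and 14.69 in early and 10.88, 10.47 and 10.21 in control mice on its brightest probe set, so all induced arrays were high on it. Another of its probe sets overlapped, at 11.35, 11.70 and 12.29 in late, 11.65, 12.57 and 11.55 in early and 10.87, 11.42 and 11.65 in control mice. On the remaining ones every induced array was above every control. Muscle fibre markers were bright and alike (log2 of their summed level 18.78 to 18.89 in late, 18.68 to 18.81 in early and 18.77 to 18.92 in control mice). Early 3 nevertheless lay close to the controls: 44.4% of all genes fell within the range of the 3 controls there, against 20.8% in early 1 and 29.4% in early 2. The macrophage markers Cd68 (7.17, 7.30 and 7.08 in late and 12.06, 11.17 and 6.23 in early mice against 7.90, 6.74 and 7.15 in controls) and Lgals3 (9.71, 7.88 and 8.05 in late and 12.81, 11.69 and 7.46 in early mice against 8.22, 7.52 and 7.27 in controls) were highest in early 1 and 2. The summed level of the 12 measured macrophage markers, of which 11 passed the filter, ran from 12.67 to 12.86 in late, 12.26 to 14.40 in early and 12.43 to 12.91 in control mice. Of those 11, 9 were higher and 2 lower in early than in control mice on average, and 0 passed by limma. The 2 lower ones were Cd163 (8.27, 7.89 and 7.95 in early against 8.33, 8.11 and 8.25 in control mice) and Mrc1 (9.56, 9.82 and 9.73 against 10.24, 9.81 and 9.73). The list's median over controls was 0.89, 0.77 and -0.28 in early 1, 2 and 3. Late 1 held genes of neutrophils and their marrow precursors that no other array showed: S100a8 was at 13.94, S100a9 at 13.87, Mpo at 8.96 and Elane at 6.56 there, while these 4 measured neutrophil markers lay between 2.05 and 2.94 in all others, and 0 of them passed the filter. Their summed level was 4.47 to 14.93 in late, 4.45 to 4.46 in early and 4.39 to 4.48 in control mice. Of 8 listed T and NK cell genes, 6 stayed under 5 in every array, among them Cd3e, Cd3g, Cd4 and Cd8a. The 2 that passed the filter were Thy1, at 6.66, 8.98 and 8.97 in late, 9.16, 8.85 and 8.80 in early and 9.65, 9.39 and 9.46 in control mice, and Cd28, at 3.76, 4.25 and 5.96 in late, 5.51, 5.12 and 5.81 in early and 6.60, 6.88 and 5.98 in control mice. Their late differences from controls were -1.30 ± 0.54 (adjusted p = 0.272) and -1.83 ± 0.51 (adjusted p = 0.148). Slow fibre genes varied within every group. Myh7, slow myosin, was at 13.37, 12.28 and 5.64 in late, 10.96, 2.78 and 2.79 in early and 7.10, 2.81 and 9.55 in control mice. Of 7 listed slow fibre genes, 7 were higher in late than in control mice on average (median 2.43), and 0 passed by limma. In early against control mice 3 were higher and 4 lower, and 0 passed. For Atp2a2 every induced array was above every control. It was at 12.96, 12.75 and 11.45 in late, 13.3, 13.01 and 11.44 in early and 10.84, 10.37 and 11.06 in control mice. In whole muscle, a change in the cells present and a change of RNA within a cell cannot be told apart.

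Fbxo32 was the 1 member that rose in early against control mice. This gene encodes atrogin-1, an F-box protein that gives an SCF ubiquitin ligase its muscle targets, among them MyoD and the initiation factor eIF3f. On its brightest probe set it was at 10.89, 10.42 and 11.41 in late, 11.79, 12.22 and 10.88 in early and 9.57, 9.82 and 9.84 in control mice. Every early and every late value was above every control, and late and early values overlapped. Early mice were 3.69-fold above controls (1.88 ± 0.35, adjusted p = 0.0446), which passed the test. Late mice differed from controls by 1.16 ± 0.35 (adjusted p = 0.17) and from early mice by -0.72 ± 0.35 (adjusted p = 0.178), neither of which passed. The early call was near its threshold, with an adjusted p of 0.064 without late 1, 0.0597 without late 2, 0.0524 without late 3, 0.142 without early 1 and 0.16 without early 2, and 0.167 to 0.17 without 1 of the controls. It was 0.00213 without early 3, and late mice then differed from early mice by -1.10 ± 0.28 (adjusted p = 0.0229). The difference of late from early mice had an adjusted p of 0.373 without early 1 and 0.44 without early 2. Over all alternatives the early difference was 1.59 to 2.52.

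The other probe sets of Fbxo32 moved further in early mice. The dimmest gave 10.45, 7.55 and 9.78 in late, 10.26, 10.06 and 9.62 in early and 7.05, 7.01 and 6.93 in control mice. All early arrays were far above the controls on it, early 3 the least, whereas late 2 was above them by much less. Its early difference was 2.98 ± 0.67, or 7.91-fold, and its late difference 2.26 ± 0.67. The middle one gave 10.61, 7.60 and 9.79 in late, 11.64, 10.43 and 10.33 in early and 8.72, 8.15 and 7.45 in control mice, an early difference of 2.69 ± 0.79 without overlap and a late one of 1.22 ± 0.79 with overlap. None of the 3 probe sets passed when all 34945 probe sets were tested (adjusted p = 0.147, 0.335 and 0.196 for early against control mice, brightest first), where 0.129% of probe sets were called. None of the members' probe sets passed there in late against control mice (0.0887% of all) or late against early mice (2.11% of all).

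**Figure D1:**
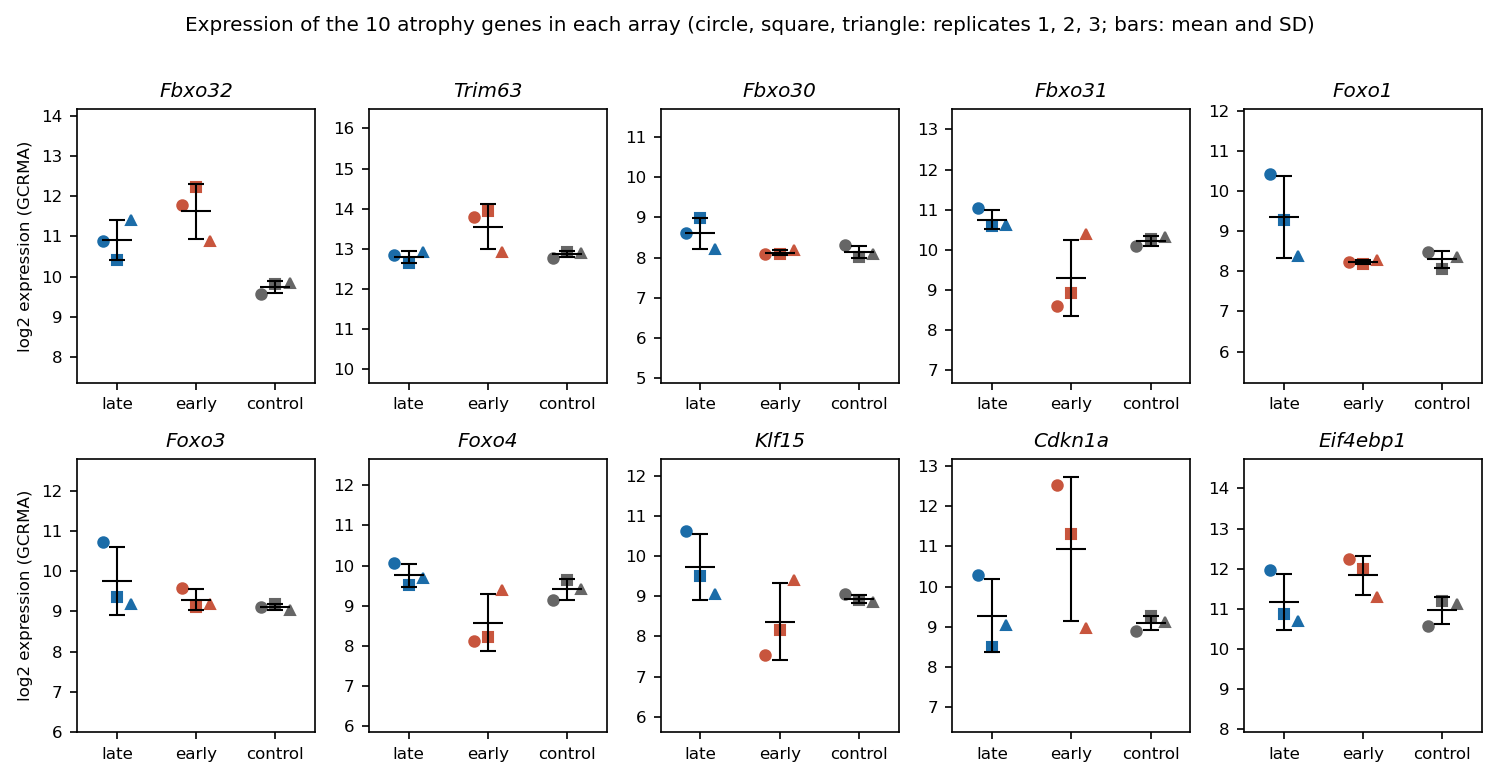
Log2 expression of each gene on its brightest probe set in late, early and control mice (y axes span the same range; circle, square and triangle are replicates 1, 2 and 3; black bars are mean and SD, n = 3). Fbxo32 is above the controls in all induced arrays, whereas Trim63, Cdkn1a, Fbxo31 and Foxo4 depart from the controls in early 1 and 2 and not in early 3.

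Trim63 differed from Fbxo32 in its pattern. It encodes MuRF1, a RING finger ligase of the sarcomere that marks myosin and its binding proteins for breakdown, and had 1 probe set. It was at 12.85, 12.64 and 12.92 in late, 13.80, 13.94 and 12.91 in early and 12.78, 12.91 and 12.89 in control mice. Early 1 and 2 were above all other arrays, and early 3 was within the controls. The early difference was 0.69 ± 0.25 (adjusted p = 0.207), the late one -0.06 ± 0.25 (adjusted p = 0.931), and late differed from early mice by -0.75 ± 0.25 (adjusted p = 0.0789), so no comparison passed. Without early 3 the early difference was 1.01 ± 0.14 (adjusted p = 0.00321) and that of late against early mice -1.07 ± 0.14 (adjusted p = 0.00189). Leaving out early 3, the early array that lay within the controls, narrowed the spread. The early difference had an adjusted p of 0.506 without early 1 and 0.458 without early 2. That of late against early mice had 0.224 and 0.206. The arrays in which Trim63 was high were those with high Cd68 and Lgals3, and the part of macrophages in its level was not tested.

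On their brightest probe sets the other F-box ligase genes did not follow atrogin-1 in early mice. Fbxo30 encodes MUSA1, an F-box protein that BMP signalling holds down in muscle. Its brightest probe set gave 8.61, 8.99 and 8.21 in late, 8.09, 8.09 and 8.19 in early and 8.31, 8.003 and 8.10 in control mice. All late values were above all early ones on it, but the difference of 0.48 ± 0.20 did not pass (adjusted p = 0.124), nor did late against control (0.47 ± 0.20, adjusted p = 0.275) or early against control (-0.01 ± 0.20, adjusted p = 0.975). The 3 dimmer probe sets of Fbxo30 had early differences of 0.31, 1.18 and 0.92, with 8.56, 7.82 and 6.29 in early against 6.92, 5.96 and 6.26 in control mice on the middle one of these, where early 1 and 2 were again the high arrays. The direction for early Fbxo30 thus depended on the probe set.

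Fbxo31, an F-box protein known for the breakdown of cyclin D1 after DNA damage, was lowest in early 1 and 2. It gave 11.04, 10.60 and 10.62 in late, 8.61, 8.93 and 10.39 in early and 10.09, 10.28 and 10.32 in control mice. Late values were above all early and all control values. Late mice were 2.73-fold above early mice (1.45 ± 0.40, adjusted p = 0.0492) and passed the test, with an adjusted p of 0.0564 when the replicate number was added as a block. Early differed from control mice by -0.92 ± 0.40 (adjusted p = 0.263) and late from control mice by 0.53 ± 0.40 (adjusted p = 0.526). The call of late against early mice was lost without any array but early 3, with adjusted p between 0.0764 and 0.147, and without early 3 the difference was 1.99 ± 0.19 and early mice were below controls by -1.46 ± 0.19 (adjusted p = 0.00226). Early against control mice had an adjusted p of 0.628 without early 1 and 0.513 without early 2. The second probe set of Fbxo31 ran the other way, with 7.53, 7.42 and 7.44 in late, 8.05, 7.54 and 8.06 in early and 7.64, 7.71 and 7.68 in control mice. Late values were below all early values there (-0.42 ± 0.13, adjusted p = 0.153 over all probe sets), so the direction of Fbxo31 was not the same on its 2 probe sets. The early arrays in which Fbxo31, Foxo4, Klf15 and Cdkn1a departed most from controls were early 1 and 2, which also had the high Cd68 and Lgals3, and the part of macrophages in these values was not tested.

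**Figure D2:**
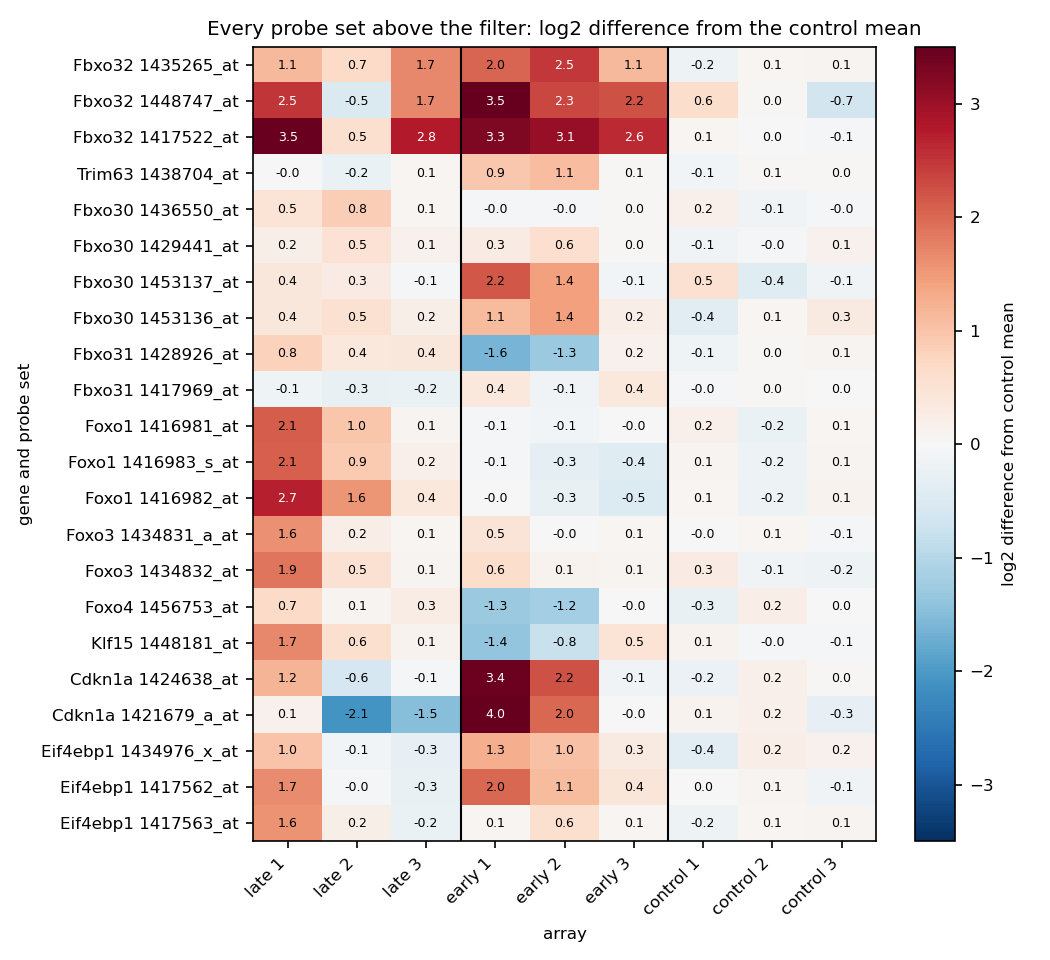
Log2 difference of each array from the control mean for the 22 probe sets that passed the filter (rows, by gene) in late, early and control arrays (columns); red is higher and blue lower. The 3 Fbxo32 rows are red in all early arrays, and the 2 Fbxo31 rows have opposite colours in late mice. The Foxo1 rows are red in late 1 and, less so, in late 2, and the Foxo3 rows mainly in late 1.

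Among the FoxO genes, Foxo1 stood out in late 1 and, less so, in late 2, Foxo3 in late 1 and Foxo4 in early 1 and 2. Foxo1, the FoxO factor most tied to fasting and glucocorticoids in muscle, was at 10.41, 9.27 and 8.38 in late, 8.23, 8.19 and 8.29 in early and 8.47, 8.06 and 8.36 in control mice. Late 1 and late 2 were above every early and control array, and late 3 was among the controls. The late difference from controls was 1.06 ± 0.42 (adjusted p = 0.257), that from early mice 1.12 ± 0.42 (adjusted p = 0.102), and the early difference from controls -0.06 ± 0.42 (adjusted p = 0.951). On the other 2 probe sets of Foxo1 that passed the filter the order of the late arrays was the same, with 9.50, 8.33 and 7.59 on one and 9.73, 8.58 and 7.39 on the other. All late values were above all controls on both, the controls reaching 7.52 and 7.14. Late 1 was the array with the neutrophil genes, and their part in its FoxO levels was not tested. Without late 1 the late difference from controls was 0.53 ± 0.26 (adjusted p = 0.427), and without late 3 that from early mice was 1.61 ± 0.31 (adjusted p = 0.0297). The difference from early mice had an adjusted p of 0.171 without late 1 and 0.184 without late 2.

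Foxo3, which in muscle is sufficient to induce atrogin-1, was at 10.73, 9.35 and 9.20 in late, 9.58, 9.10 and 9.20 in early and 9.12, 9.20 and 9.04 in control mice. Only late 1 and, less so, late 2 and early 1 were above the controls. The late difference was 0.64 ± 0.36 (adjusted p = 0.396), and 0.15 ± 0.17 without late 1, and the early one was 0.17 ± 0.36 (adjusted p = 0.819). Its second probe set had late 1 highest as well, at 9.47 against 7.44 to 7.89 in controls.

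Foxo4, the X-linked FoxO gene, was at 10.07, 9.52 and 9.68 in late, 8.12, 8.23 and 9.40 in early and 9.15, 9.65 and 9.43 in control mice. Early 1 and 2 were below all other arrays, and late values were above all early values. Late mice were 2.25-fold above early mice (1.17 ± 0.33, adjusted p = 0.0524), just short of the threshold, and the early difference from controls was -0.83 ± 0.33 (adjusted p = 0.237). Without early 3 these were 1.58 ± 0.21 (adjusted p = 0.00192) and -1.23 ± 0.21 (adjusted p = 0.00723). Their adjusted p was 0.162 and 0.583 without early 1, and 0.143 and 0.484 without early 2. Late differed from control mice by 0.35 ± 0.33 (adjusted p = 0.626). A dim probe set each of Foxo1, Foxo3 and Foxo4 was between 2.03 and 2.37 in every array and carried no measurable level.

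Klf15, a zinc finger factor that glucocorticoids induce and that acts with FoxO1 on the ligase promoters and on amino acid breakdown, was at 10.63, 9.50 and 9.05 in late, 7.54, 8.16 and 9.40 in early and 9.05, 8.90 and 8.86 in control mice. Early 1 and 2 were the lowest arrays and late 1 the highest. Late differed from early mice by 1.35 ± 0.50 (adjusted p = 0.098), from controls by 0.79 ± 0.50 (adjusted p = 0.442), and early from control mice by -0.57 ± 0.50 (adjusted p = 0.556). Without early 3 the difference of late from early mice was 1.87 ± 0.42 (adjusted p = 0.0133), and without late 1 it was 0.90 ± 0.47 (adjusted p = 0.23). Its adjusted p was 0.285 without early 1 and 0.214 without early 2.

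Cdkn1a had the widest spread of all members. It encodes p21, an inhibitor of the cell cycle kinases that p53 and, in wasting muscle, ATF4 induce. It was at 10.29, 8.51 and 9.04 in late, 12.52, 11.32 and 8.98 in early and 8.89, 9.26 and 9.13 in control mice. Early 1 and 2 were far above the controls and early 3 was among them, and the early difference of 1.85 ± 0.80 did not pass (adjusted p = 0.261). Without early 3 it was 2.83 ± 0.52 (adjusted p = 0.00977), and late against early mice -2.64 ± 0.52 (adjusted p = 0.00841). The early difference had an adjusted p of 0.628 without early 1 and 0.484 without early 2. Late against early mice had 0.482 and 0.333. The second probe set ordered the early arrays alike, at 10.98, 9.01 and 6.999 against 7.14, 7.17 and 6.72 in controls. In late mice it gave 7.15, 4.93 and 5.51, a difference of -1.15 ± 0.99 from controls, where the brighter one gave 0.19 ± 0.80, so late 2 and late 3 lay well below the controls on the dimmer probe set. Late differed from early mice by -1.66 ± 0.80 (adjusted p = 0.174) on the brighter probe set.

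Eif4ebp1 encodes 4E-BP1, which binds the cap-binding factor eIF4E and holds back translation when mTORC1 is inactive. It was at 11.97, 10.88 and 10.69 in late, 12.23, 11.99 and 11.28 in early and 10.59, 11.19 and 11.12 in control mice on its brightest probe set. All early values were above all controls, though early 3 was above them by little, and late 1 was high while late 2 and late 3 were not. The early difference was 0.87 ± 0.37 (adjusted p = 0.257), the late one 0.21 ± 0.37 (adjusted p = 0.805), and late differed from early mice by -0.66 ± 0.37 (adjusted p = 0.238). A second probe set had 12.70, 11.79 and 11.11 in early against 10.69, 10.78 and 10.56 in control mice, again with no overlap. The third and dimmest had 5.02, 5.51 and 5.02 in early against 4.77, 5.02 and 5.03 in control mice, which overlapped, and an early difference of 0.24 ± 0.43. Without late 1 the late difference from controls was -0.18 ± 0.30 on the brightest probe set, the other way round.

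**Figure D3:**
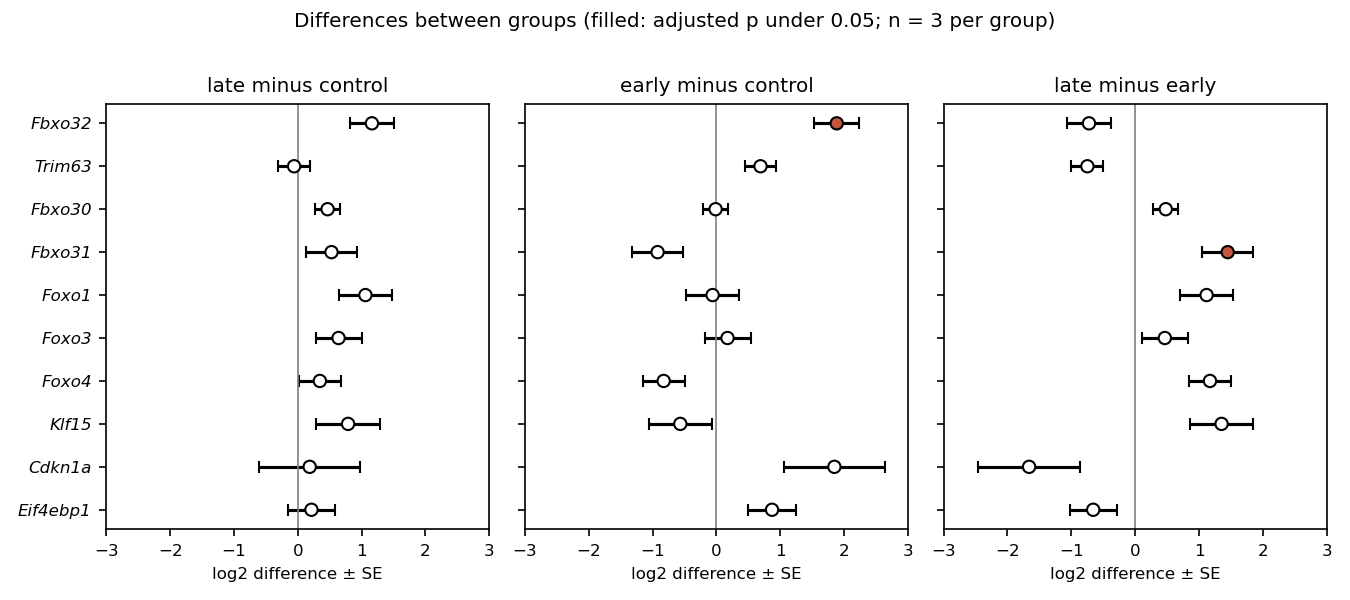
Log2 difference ± SE of each gene for late minus control, early minus control and late minus early (x axes alike, n = 3 per group; filled points passed at an adjusted p under 0.05). Fbxo32 in early minus control (1.88) and Fbxo31 in late minus early (1.45) are the 2 filled points.

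Over the 10 genes, 1 rose and 0 fell in early against control mice, where 1.19% of the 9697 genes were called (0.928% higher and 0.258% lower). An unadjusted limma p under 0.05 was found for 6 of them, against 18.5% of all genes. In 2 of the 10 the early values were all above the controls (9.63% of all genes) and in 0 all below (13.9% of all genes). The members split by direction, 5 positive and 5 negative, with a median of 0.08 against -0.03 for all genes, of which 4451 were positive and 5246 negative. In late against control mice 0 of 10 passed by limma (0.206% of all genes did, 0.0928% higher and 0.113% lower), 3 had an unadjusted p under 0.05 (17.3% of all genes), and 9 of 10 had positive values with a median of 0.50 against 0.01 for all genes. Of the 9697 genes, 4964 were positive there. The members' median over controls was 1.075, 0.30 and 0.08 in late 1, 2 and 3, so it was largest in the array with the neutrophil genes. Late values were all above controls in 2 of 10, against 16% of all genes, and all below in 0 (14.9%). In late against early mice 1 of 10 rose, and 0 fell, close to the 11.5% of all genes called (6.23% higher and 5.31% lower). An unadjusted p under 0.05 was found for 6 members (34.2% of all genes). Late values were all above early values in 4 of 10 (18.3% of all genes) and all below in 0 (13.7%). Early and late mice were compared with the same controls.

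The members' distance from the controls differed between arrays of 1 group. Late 1 was above the range of the controls for 9 of 10 members, where 37.6% of all genes were, and below it for 0 (36.8%). Late 2 was above it for 6 (34.7%) and below it for 2 (33.3%), and late 3 above for 4 (33.5%) and below for 0 (30.9%). Early 1 was above it for 5 (37.3%) and below it for 3 (41.9%), early 2 above for 4 (34.3%) and below for 3 (36.3%), and early 3 above for 4 (20.9%) and below for 0 (34.8%). The median absolute distance of the members from the control mean was 1.28, 1.05 and 0.0944 in early 1, 2 and 3, against 0.407, 0.285 and 0.168 over all genes. In late 1, 2 and 3 it was 1.08, 0.469 and 0.0988, against 0.34, 0.239 and 0.209. Fitted without early 3, the early comparison called 5 of 10 members, Fbxo32, Trim63 and Cdkn1a higher and Fbxo31 and Foxo4 lower, where 18.1% of all genes were called. Fitted without early 1 or without early 2, it called 0 members, where 0.639% and 0.227% of all genes were called.

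Other genes of the pathway were grouped in 8 lists, some of which share genes. In early against control mice 0 of their genes passed by limma. Over all genes 1.19% were called and 18.5% had an unadjusted p under 0.05, the share beside which the counts below stand. Of 21 tested genes of the muscle ubiquitin system 0 had an unadjusted p under 0.05, with a median of -0.04, and the smallest p belonged to Fbxo9, an F-box gene (-0.51 ± 0.29), and Stub1, the chaperone-linked ligase CHIP (0.33 ± 0.19). Of 18 genes of IGF1, PI3K and AKT signalling 4 had one, with a median of -0.16: Sgk1, a kinase that also phosphorylates FoxO, differed by -1.20 ± 0.32 (adjusted p = 0.131) and the growth factor gene Igf1 by -1.26 ± 0.42 (adjusted p = 0.184). Of 21 FoxO target genes 5 had one, with a median of 0.07: the autophagy genes Sqstm1 and Gabarapl1 differed by 1.10 ± 0.36 and 0.88 ± 0.33. Of 13 glucocorticoid and KLF15 target genes 3 had one, with a median of -0.36, 4 being positive and 9 negative. They were led by Bcat2, which starts branched-chain amino acid breakdown and was higher (0.72 ± 0.16, adjusted p = 0.0848), and Sgk1, which was lower (-1.20 ± 0.32). Of 16 mTORC1 and translation genes 2 had one, with a median of 0.12: Deptor, an inhibitor of mTOR, differed by -1.76 ± 0.58 and Eif4ebp2 by 0.53 ± 0.20. Of 11 p53 target genes 3 had one, with a median of 0.21, led by Phlda3 (1.32 ± 0.36) and Bbc3 (1.02 ± 0.36). Of 13 ATF4 target genes 5 had one, with a median of 0.34, led by Ddit3, which encodes the stress factor CHOP (0.84 ± 0.23), and Vldlr, a lipoprotein receptor (0.37 ± 0.13). Of 13 genes for substrates of atrogin-1 and MuRF1 0 had one, with a median of -0.08, and Des, desmin, differed by 0.44 ± 0.26 and Vim, vimentin, by -0.33 ± 0.21.

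In late against control mice 0 genes of the 8 lists passed by limma, and 3, 3, 5, 5, 5, 1, 5 and 0 had an unadjusted p under 0.05 in the order just given. Over all genes 0.206% were called and 17.3% had such a p. The medians were 0.21, 0.01, 0.11, 0.68, 0.20, 0.09, -0.03 and 0.02. The glucocorticoid and KLF15 list had the highest median, with 11 of 13 genes positive. Tsc22d3, the glucocorticoid-induced leucine zipper, differed by 1.01 ± 0.26 (adjusted p = 0.128) and Bcat2 by 0.63 ± 0.16 (adjusted p = 0.128). The list's median over controls was 1.52, 0.47 and 0.19 in late 1, 2 and 3 and -0.16, -0.34 and -0.33 in early 1, 2 and 3, while single controls ran from -0.27 to 0.40. Late 1, which carried the neutrophil genes, was thus the highest, as for Klf15 itself, and their part was not tested. Ulk1, a kinase that starts autophagy, differed by 0.77 ± 0.20 and the redox gene Txnip by -0.88 ± 0.23 in the FoxO target list. Mtor differed by 0.73 ± 0.16 (adjusted p = 0.0965) and Tsc2, its upstream inhibitor, by 0.81 ± 0.22 in the translation list. In the remaining lists the smallest p belonged to Cul1, the scaffold of SCF ligases (0.48 ± 0.17), and Mul1, a mitochondrial ligase (-0.49 ± 0.18), to Phlpp1, a phosphatase of AKT (0.45 ± 0.16), and Igf1 (-1.09 ± 0.42), to the p53 targets Aen (0.55 ± 0.12) and Gadd45a (0.35 ± 0.26), to the ATF4 targets Vldlr (0.54 ± 0.13) and Atf5 (-0.51 ± 0.14), and to Myod1 (0.54 ± 0.26) and Myh2 (0.68 ± 0.37) among the substrates.

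**Figure D4:**
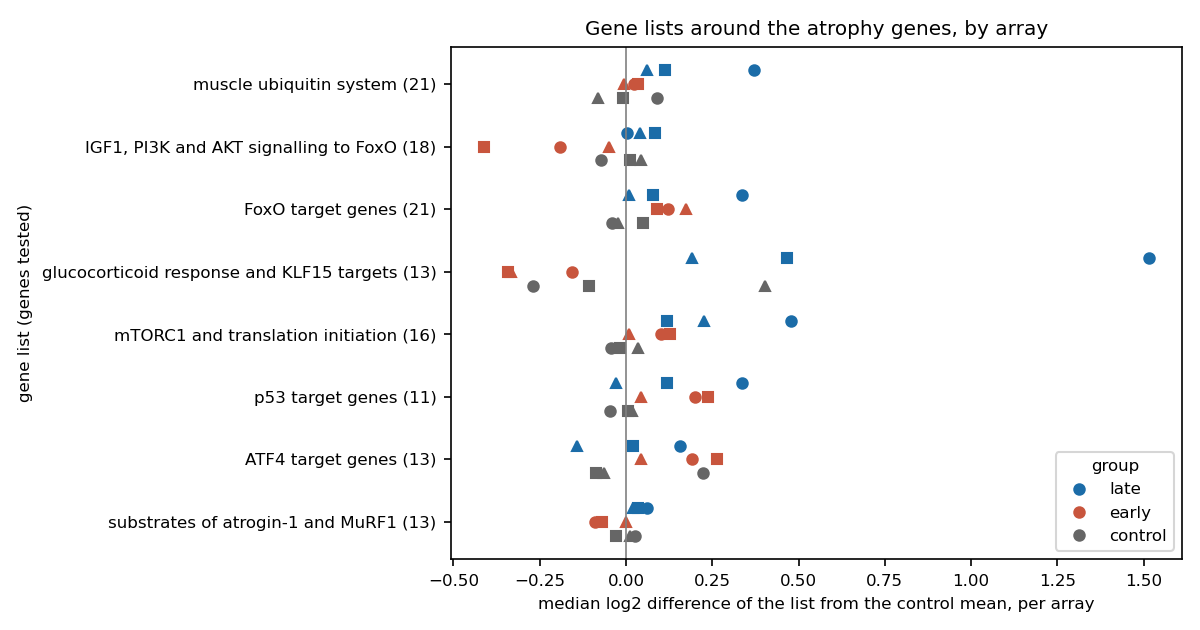
Median log2 difference from the control mean of the tested genes of each list (rows, number tested in brackets) in each array; blue is late, red early and grey control, and circle, square and triangle are replicates 1, 2 and 3. The glucocorticoid and KLF15 list is highest in late 1 (1.52), and the substrates of atrogin-1 and MuRF1 stay near 0 in all arrays.

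In late against early mice single genes of these lists passed, beside the 11.5% of all genes that did. In AKT signalling 5 of 18 rose and 1 fell: Prkaa2, a subunit of the energy sensor AMPK (0.76 ± 0.14), Phlpp1 (0.77 ± 0.16), Ep300, an acetyltransferase that binds FoxO (1.16 ± 0.27), Sgk1 (1.18 ± 0.32) and Pik3r1, the regulatory subunit of PI3K (1.36 ± 0.37), were higher in late mice and Pdpk1, a kinase that activates AKT, was lower (-1.13 ± 0.28). Of 16 mTORC1 and translation genes 4 rose and 0 fell: Tsc2 (1.02 ± 0.22), Mtor (0.69 ± 0.16), Deptor (2.29 ± 0.58) and Eif4g3 (0.92 ± 0.24). In the glucocorticoid and KLF15 list 2 of 13 rose, Tsc22d3 (1.37 ± 0.26) and Sgk1. In the ubiquitin system 2 of 21 fell, Mul1 (-0.80 ± 0.18) and Stub1 (-0.72 ± 0.19). Of 21 FoxO targets Ulk1 rose (0.87 ± 0.20) and Mul1 fell, and of 11 p53 targets Phlda3 fell (-1.32 ± 0.36). Of the ATF4 targets and the substrates 0 of 13 each passed by limma, with 6 and 1 at an unadjusted p under 0.05 (34.2% of all genes). Atf5 (-0.49 ± 0.14), Psat1, an enzyme of serine synthesis (-1.84 ± 0.55), Mybpc1, a myosin binding protein (0.33 ± 0.14), and Myh2 (0.80 ± 0.37) had their smallest p. Medians in the order of the lists above were 0.34, 0.39, 0.04, 0.95, 0.14, 0.13, -0.20 and 0.10, against 0.03 over all genes.

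The genes whose levels ran most like those of Fbxo32 and Trim63 over the 9 arrays were different for each. For Fbxo32 they were Mia3, a cargo receptor of the endoplasmic reticulum (Pearson r = 0.972), Tmem140 (0.949), Cyld, a deubiquitinase (0.926), Slc7a6os (0.924) and Dusp23, a phosphatase (0.923). For Trim63 they were Nfkbie, an inhibitor of NF-kappaB (0.989), Gmds, an enzyme of fucose synthesis (0.984), the small GTPase gene Arf6 (0.982), Mob3a (0.978) and Mgat4b, a glycosyltransferase (0.978). These were the highest of 9697 genes, the 9 points share their groups and the departures of early 1 and 2, and the values are a description only. Nfkbie was at 5.15 ± 0.49 in late, 7.83 ± 1.88 in early and 5.64 ± 0.18 in control mice (SD, n = 3). Mia3 was at 10.55 ± 0.08 in late, 10.71 ± 0.20 in early and 10.03 ± 0.06 in control mice. Between the members themselves r was 0.78 for Fbxo32 and Trim63, 0.983 for Fbxo31 and Foxo4, 0.872 for Foxo1 and Foxo3, and -0.915 for Trim63 and Fbxo31. With each group's mean taken out these were 0.909, 0.96, 0.86 and -0.849. Over all 45 pairs the values within groups ran from -0.849 to 0.96, and many were near 0, such as -0.0641 for Fbxo32 and Foxo3 and 0.053 for Klf15 and Eif4ebp1.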

How the data were processed

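Quadriceps muscle of 9 mice was profiled on 1 array each, in 3 groups of 3 taken from the labels. The authors deposited log2 values. Per the submitters' processing notes these were made with GCRMA, a method that removes background by probe base content, equalises arrays and gives 1 value per probe set, and no version is stated there. Equalising hides any shift shared by all genes, and dim probe sets are drawn together. Array medians lay between 3.41 and 3.45. Precision is limited by the number of arrays, and nothing says how replicates were obtained beyond their labels, so each p-value reflects only how these samples vary, which may be technical.

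Of 45101 probe sets, 34958 named 1 gene, 932 several and 9211 none in the platform annotation; 64 control probe sets were left out and 0 symbols needed an update through the gene identifier (GRCm38.p6). A probe set passed where log2 was above 5 in at least 3 arrays (16048), and each gene was read on its passing probe set with the highest mean (9697 genes). limma 3.58.1 in R 4.3.3 fitted 3 group means over all 9 arrays (6 residual and 2.84 prior degrees of freedom), with Benjamini-Hochberg adjustment over all genes and a threshold of 0.05. All adjusted p-values are from limma. Every probe set of the members was also read from a fit over the 34945 probe sets with no filter. Exact tests were left out, since 3 against 3 allows no p below 0.1.

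The members and lists were chosen with earlier results of these data known. Named genes were the members, the genes of each list that passed or had the 2 smallest p-values, H2-K1, and the 5 genes most correlated with Fbxo32 and with Trim63. The neutrophil, macrophage and slow fibre genes described were chosen after their values were seen. Deviations of same-numbered late and early arrays from their group means correlated at 0.168, 0.201 and 0.16. Those of early and control arrays correlated at 0.35, 0.11 and -0.0391, and those of late and control arrays at 0.0847, -0.165 and -0.11. No label states a pairing, and these values do not settle whether the numbers pair arrays. The main fit had no block, and the replicate number was added as a block only as an alternative. With that block Fbxo31 in late against early mice did not pass by limma (adjusted p = 0.0564). On simulated data with 200 of 9697 genes changed in early against control, the fit recovered 56.6% of those changed by 1 on the log2 scale and 88% at 2, and 4.67% of calls were false. The simulated noise was independent between genes and arrays, with 1 spread per gene in all groups. In these data the spread differed by group, such as an SD of 1.80 in early and 0.18 in control mice for Cdkn1a. The simulated rates therefore do not give the rates of missed or false calls here. Promoter sequences are RefSeq's.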

Additional observations from a re-analysis of the deposited data

Results flagged for a closer look

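Fbxo31 differed between the inductions in the direct comparison of late with early mice. It was at 10.76 ± 0.25 in late, 9.31 ± 0.95 in early and 10.23 ± 0.12 in control mice (SD, n = 3), and the difference of late from early mice was 1.45 ± 0.40 (adjusted p = 0.0492), with 3 of 3 late arrays above every early array. The value rests on early 1 and 2, since early 3 lay at 10.39, and the second probe set gave -0.42 ± 0.13.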

How the results depend on the processing

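Genes called in early against control mice numbered 115, and 56 with no filter, 61 with only the compared groups in the fit, 3335 with array weights (whose estimation stopped before it converged) and 62 with the replicate block. In late against control mice there were 20, and 12 without probe sets shared between transcripts, 12 with only the compared groups, 1037 with array weights and 5 with the replicate block. In late against early mice there were 1119, and 584 with no filter, 38 with only the compared groups and 3534 with array weights, while the replicate block gave 1114. Leaving out 1 array gave 6 to 1756, 5 to 59 and 143 to 2959 calls in the same order. Centring each array on its median gave 8 higher and 18 lower genes in late against control mice (9 and 11 as deposited) and 489 higher and 631 lower in late against early mice (604 and 515 as deposited). The early difference of Fbxo32 had an adjusted p of 0.127 with no filter, 0.0512 as the mean of its probe sets, 0.08 with only the compared groups and 0.108 with the replicate block. No label states a pairing of early with control arrays. Fbxo31 in late against early mice had 0.112 with no filter, 0.173 as the mean of its probe sets (0.51), 0.0562 with centred arrays, 0.135 with only the compared groups and 0.0564 with the replicate block, which changed no other call of a member in that comparison. Foxo4 in late against early mice passed with a filter at log2 6 (0.048) and with a variance trend (0.0487).

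Of 540 alternative values of the 30 member differences, 476 kept their direction and side of the threshold, 25 gained a call, 25 lost one (of Fbxo32 in early against control mice or Fbxo31 in late against early mice), and 14 changed sign, of which 0 were called. Fbxo30 in early against control mice turned to 0.60 as the mean of its probe sets and 0.027 with array weights, and ran from -0.080 to 0.074 without 1 array. Foxo1 in that comparison ran from -0.18 to 0.029 without 1 array. In late against control mice Trim63 ran from -0.12 to 0.024, Cdkn1a from -0.32 to 0.57 and Eif4ebp1 from -0.18 to 0.46 without 1 array. Cdkn1a there was -0.48 as the mean of its probe sets and -0.29 with array weights, and Eif4ebp1 -0.20 with array weights. In late against early mice Fbxo30 was -0.26 as the mean of its probe sets, and Foxo3 ran from -0.020 to 0.75 without 1 array. The cause was not tested, except that fewer arrays or more genes entered where the setting says so. Dim probe sets, near log2 2, limit what can be read for Foxo genes.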

Other observations

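Of 6 genes listed as markers of satellite cells and myoblasts, 1 fell in early against control mice (0.258% of all genes were called lower) and 2 fell in late against control mice (0.113% of all genes), and 0 rose in either by limma. In each of these 2 comparisons 2 of the 6 had positive and 4 negative differences. In late against early mice 2 fell, Mymk and Myog, and 0 rose (5.31% of all genes were called lower), with 3 positive and 3 negative. Mymk, which encodes the fusion protein myomaker, fell by 1.42 ± 0.19 in early against control mice (adjusted p = 0.0139) and by 2.60 ± 0.19 in late against control mice (adjusted p = 0.0016). It was at 3.90, 3.92 and 4.04 in late, 4.96, 5.46 and 4.98 in early and 6.83, 6.26 and 6.56 in control mice. Mymk thus passed the filter only through the controls and early 2. Its late values lay under the filter's log2 5, where dim probe sets are drawn together, so the size and SE of its fall are uncertain. Myog, the differentiation factor myogenin, which is known to induce both ligases in denervated muscle, fell by 2.86 ± 0.39 in late against control mice (adjusted p = 0.0359) and by 2.41 ± 0.39 in late against early mice (adjusted p = 0.0131).

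Some arrays hold identical values. To 4 decimals, 5 of the 22 member probe sets that passed the filter had the same value in at least 1 pair of arrays, or 22.7%, and 3751 of 16048 over all probe sets, or 23.4%. The brightest Foxo3 probe set, for example, was at 9.20 in late 3, early 3 and control 2.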
